A study of Mus musculus with 24 samples.

Results

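The Zfp36 family of mRNA decay factors was followed in the dorsal hippocampus of mice before and after a learning event. Its members here are the 3 entries of the expression table named Zfp36, Zfp36l1 and Zfp36l2, out of 19661 entries in all, and all 3 passed the filter of a mean of at least 1 RPKM, a read density that allows for gene length and library size. RNA sequencing was done on 24 mice, 1 library per animal, with 6 animals in each of 4 groups. Wild-type C57BL/6J mice and heterozygous Baf53b+/- mice, whose strain label names B6J and 129S6 and the allele Actl6b<tm1Grc>, were killed either straight from the home cage or 30 minutes after training in Object Location Memory, a task in which the animal learns where objects stand in an arena. Actl6b encodes BAF53b, a subunit of the neuronal BAF chromatin remodelling complex. A second strain is named for the heterozygotes alone, so strain background and the dose of BAF53b cannot be told apart. Home cage mice are the only controls, so learning and the rest of the training experience cannot be told apart either.

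Proteins of this family carry a pair of CCCH zinc fingers that bind AU-rich stretches in the 3′ untranslated regions (3′ UTRs) of short-lived mRNAs. They recruit the CCR4-NOT complex, which removes the poly(A) tail and opens the mRNA to decay. Zfp36, also called tristetraprolin, is best known for limiting Tnf and other cytokine mRNAs in macrophages and is an early response gene in many cell types. Zfp36l1 and Zfp36l2 share the RNA-binding domain and are known from development and blood cell formation.

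The binding letters of the family are also found in the family's own transcripts. The nonamer TTATTTATT, searched on the sense strand and written as DNA, occurred 1 time in the 3′ UTR of each member. The sites are shown because they are the sequence on which such proteins act, with the nonamer in capitals and read 5′ to 3′ from GENCODE M21 transcripts (GRCm38, minus strand in all 3). They lie at chr7:28376950-28376979, chr12:80108166-80108195 and chr17:84184913-84184942, within the 3′ UTR of the respective gene.
Zfp36: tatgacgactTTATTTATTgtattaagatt
Zfp36l1: aactgttggaTTATTTATTttagaaattct
Zfp36l2: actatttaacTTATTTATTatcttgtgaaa
The nonamer begins at base 589 after the stop codon of Zfp36, at base 1404 in Zfp36l1 and at base 821 in Zfp36l2. Among genes whose 3′ UTR was within 10% of the same length, 4.21% held it for Zfp36, 10% for Zfp36l1 and 10.2% for Zfp36l2. A match of letters is a description and was not tested as a binding site.

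RefSeq promoters of GRCm38.p6 (250 bases before to 50 bases after the start site) were given for Zfp36, at chr7:28379179-28379478, and Zfp36l1, at chr12:80112964-80113263, both on the minus strand. These 2 members are shown because the promoter set used had no entry for Zfp36l2. Capitals mark matches on either strand to 5 motifs: the CArG box bound by SRF, the EGR site GCGGGGGCG, the cAMP response element TGACGTCA, the AP-1 site TGANTCA and the TATA box TATAAA.
Zfp36: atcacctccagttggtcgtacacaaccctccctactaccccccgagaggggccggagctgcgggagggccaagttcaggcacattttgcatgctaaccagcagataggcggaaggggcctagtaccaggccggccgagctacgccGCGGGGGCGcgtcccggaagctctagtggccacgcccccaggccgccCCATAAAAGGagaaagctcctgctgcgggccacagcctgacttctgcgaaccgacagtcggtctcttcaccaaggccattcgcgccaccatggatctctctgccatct
Zfp36l1: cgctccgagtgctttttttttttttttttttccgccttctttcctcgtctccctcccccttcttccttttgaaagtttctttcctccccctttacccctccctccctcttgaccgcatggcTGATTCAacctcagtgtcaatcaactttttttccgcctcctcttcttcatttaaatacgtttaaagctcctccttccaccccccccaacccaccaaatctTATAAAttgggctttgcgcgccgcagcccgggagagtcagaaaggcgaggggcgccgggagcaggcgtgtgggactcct
In Zfp36 the EGR site starts at base -105 from the start site and the CArG box at base -58. In Zfp36l1 the AP-1 site starts at base -129 and the TATA box at base -29. The matches do not overlap, and the other motifs had 0 matches in each window. Of 32851 promoters of the same length, 1.63% held a CArG box, 2.91% the EGR site, 1.79% the cAMP response element, 7.81% the AP-1 site and 13.6% the TATA box.

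Depth, recovered from the steps in low values, ran from 28.4 to 47 M reads per library. Levels of Actl6b did not overlap between the genotypes, and heterozygotes stood at 58.5% of the wild-type mean in the home cage and 55.7% after training (exact permutation p = 0.00216 in each condition, two-sided, the smallest value that 6 against 6 can give). All 16 listed early genes that neurons induce when they fire passed limma in the response to training averaged over the genotypes. For example, Egr1 differed by 1.23 ± 0.05 (SE, log2 scale). All 16 were higher, where 3.26% of all genes were, and 14 passed in wild type alone and 15 in heterozygotes. The list was drawn up with earlier results of these data known. Markers of hippocampal neurons were abundant, with 12 markers summing to between 4682 and 5637 RPKM in every library. Libraries also differed in choroid plexus RNA, from tissue that lies next to the hippocampus: 6 libraries had a mean marker level of 3.35 to 4.76 on the log2(RPKM + 0.5) scale and the other 18 a level of 0.11 to 1.86. The 6 were wild-type animals 2425 (home cage) and 2412 (trained) and heterozygous animals 2422 and 2424 (home cage) and 2409 and 2429 (trained). Both sexes were present, as read from the Y chromosome gene Ddx3y. The only female among home cage heterozygotes was 2401, against 2409, 2410 and 2429 after training and 2402, 2404 and 2418 in the wild-type home cage. Choroid-rich heterozygotes were male in the home cage and female after training. Sex was thus partly mixed with training in heterozygotes and with genotype in the home cage. In whole tissue, a change in the number of cells of a type and a change in RNA per cell cannot be told apart.

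Zfp36l1 was the most abundant member, followed by Zfp36l2 and Zfp36. Over the 24 animals the level was 9.47 ± 1.07 RPKM for Zfp36l1, 6.86 ± 0.716 for Zfp36l2 and 2.37 ± 0.312 for Zfp36 (SD, n = 24). Zfp36 was below both relatives in all 24 animals. Zfp36l1 was above Zfp36l2 in 23 of 24, the exception being wild-type home cage animal 2430. Among 12399 genes tested, 50.6% had a lower mean than Zfp36l1, 40.4% a lower mean than Zfp36l2 and 13.97% a lower mean than Zfp36. Even Zfp36 was covered by 59.3 to 111 reads per kilobase in each library, against 262 to 477 for Zfp36l1 and 184 to 326 for Zfp36l2. Zfp36l3, a relative known from placenta, was near 0, with at most 0.0426 RPKM in any library.

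**Figure D1:**
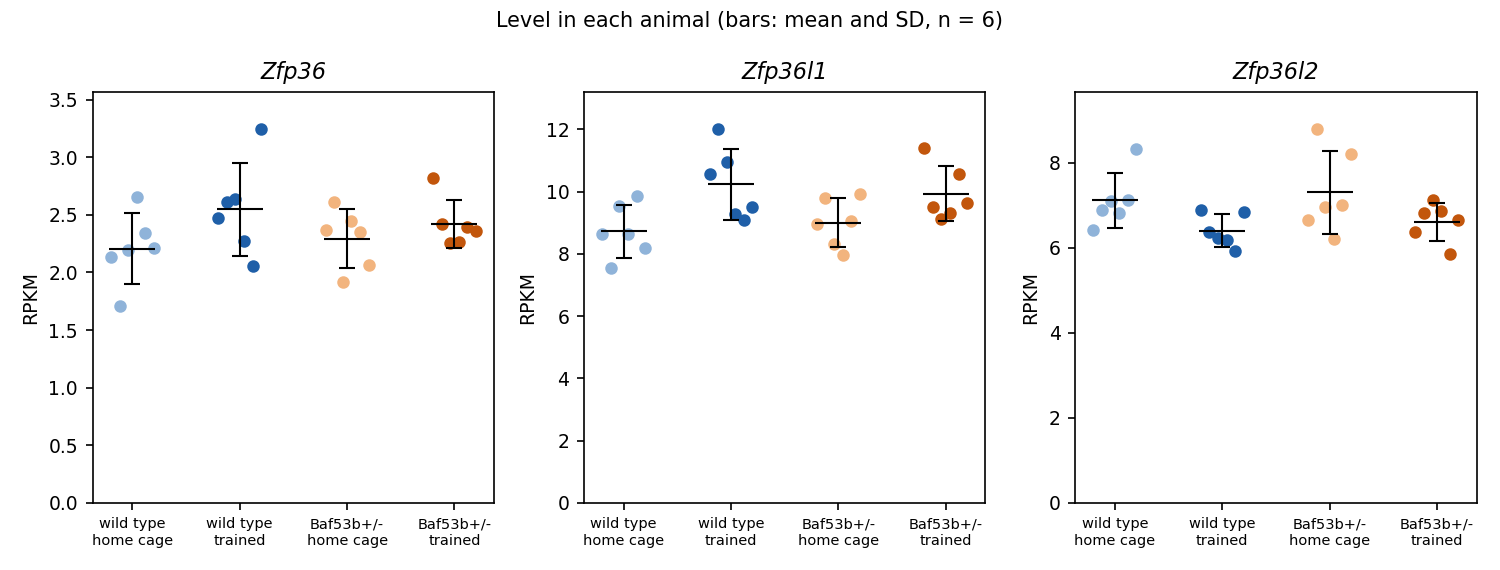
Level of Zfp36, Zfp36l1 and Zfp36l2 in RPKM (vertical axis, from 0) in the 4 groups (horizontal axis), 1 point per animal, with bars for the mean and SD of 6 animals. Trained and home cage animals overlap for every gene in both genotypes, with Zfp36l1 means higher and Zfp36l2 means lower after training.

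Training was compared with the home cage in each genotype to ask whether the family took part in the early response. No member passed the test in either genotype (0 of 3; limma, Benjamini-Hochberg adjusted p under 0.05 over all genes), where 1.08% of all genes passed in wild type (0.96% higher) and 1.03% in heterozygotes (0.887% higher). At an unadjusted p under 0.05, 1 of 3 members passed in wild type, where 11.1% of all genes did, and 0 of 3 in heterozygotes, where 11% did. The 2 training comparisons share no animals.

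Zfp36l1, on chromosome 12 at 81208747 to 81214000 (mm9), gave the largest difference of the 3 in each training comparison. In wild-type home cage mice its lowest, median and highest levels were 7.54, 8.63 and 9.86 RPKM, and in trained wild-type mice 9.07, 10.04 and 11.999. In heterozygotes they were 7.96, 9.005 and 9.92 RPKM in the home cage and 9.11, 9.57 and 11.4 after training. All 6 trained animals of each genotype lay above the home cage mean of that genotype, yet the groups overlapped: 3 of 6 trained wild-type mice and 2 of 6 trained heterozygotes exceeded the highest home cage animal. Wild-type means were 8.73 ± 0.853 RPKM before and 10.2 ± 1.15 after training (SD, n = 6). Heterozygous means were 9.002 ± 0.783 and 9.92 ± 0.883.

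On the log2(RPKM + 0.5) scale, used for all tests and slightly understating changes of low genes, Zfp36l1 differed by 0.22 ± 0.07 in wild type (SE; limma adjusted p = 0.189) and by 0.13 ± 0.07 in heterozygotes (adjusted p = 0.525). Averaged over the genotypes, the difference was 0.17 ± 0.05 (95% confidence interval 0.07 to 0.28, adjusted p = 0.0510), just outside the threshold that 4.17% of genes passed. An exact permutation test on this gene alone, shuffling animals within each genotype and not adjusted over genes, gave p = 0.00339. The same kind of test gave an exact p of 0.0303 for wild-type animals and of 0.0887 for heterozygotes. The averaged difference passed limma in 7 of 24 fits that each left out 1 library. These were the fits without wild-type animal 2405 (adjusted p = 0.0437), 2425 (0.0315), 2421 (0.0389) or 2433 (0.0348) or heterozygote 2401 (0.0429), 2424 (0.0416) or 2414 (0.0459).

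For all 3 members the correlation with choroid plexus RNA differed in sign between the 6 choroid-rich libraries and the 18 others. The highest animal for Zfp36l1 was a choroid-rich library in 3 of 4 groups, 2425, 2424 and 2409. Across the 18 other libraries the correlation of Zfp36l1 with the choroid marker level was 0.46 (Pearson) and 0.28 (Spearman). Within the 6 choroid-rich libraries it was -0.40 and -0.37. For Zfp36 the correlations were 0.65 and 0.60 in the 18 and -0.48 and -0.49 in the 6, and for Zfp36l2 -0.16 and -0.16 in the 18 and 0.85 and 0.83 in the 6. These are descriptions over animals of 4 groups, without group means subtracted, and a correlation over 6 libraries is imprecise. In those 6 the marker level was 3.70, 4.25 and 4.76 in home cage animals and 3.35, 3.44 and 4.11 in trained ones. It was thus partly mixed with training. With the marker level as a covariate, the averaged Zfp36l1 difference was 0.18 with an adjusted p of 0.0104. Without the 6 libraries it was 0.16 with an adjusted p of 0.146.

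**Figure D2:**
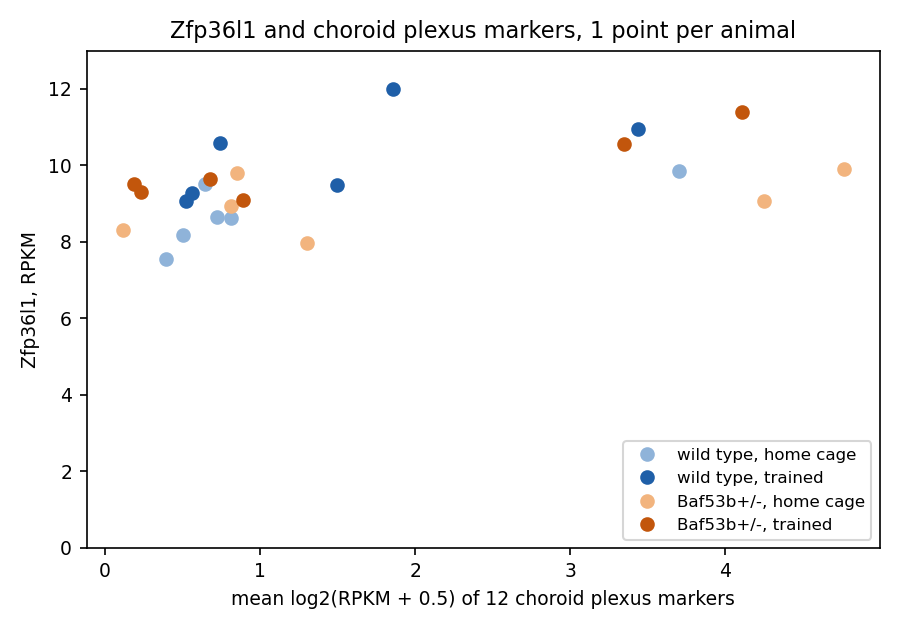
Zfp36l1 in RPKM (vertical axis, from 0) against the mean log2(RPKM + 0.5) of 12 choroid plexus markers (horizontal axis), 1 point per animal, coloured by group. The 6 libraries on the right, at 3.35 to 4.76, hold the highest Zfp36l1 animal of 3 of 4 groups.

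Zfp36, on chromosome 7 at 29161803 to 29164247 (mm9), did not pass in any training comparison. In wild type its lowest, median and highest levels were 1.71, 2.20 and 2.65 RPKM in the home cage and 2.06, 2.54 and 3.24 after training. In heterozygotes they were 1.92, 2.36 and 2.62 RPKM in the home cage and 2.26, 2.38 and 2.82 after training. The groups overlapped, and 1 trained animal in each genotype lay above all its home cage controls. The difference was 0.17 ± 0.08 in wild type (SE; limma adjusted p = 0.470) and 0.07 ± 0.08 in heterozygotes (adjusted p = 0.831). Exact permutation gave p = 0.136 and 0.355. With 1 library left out the difference ran from 0.11 to 0.22 in wild type and from 0.03 to 0.10 in heterozygotes, and without the choroid-rich libraries it was 0.0002 in heterozygotes. With sex as a covariate it was 0.04 in heterozygotes. The confidence interval of the averaged difference ran from -0.01 to 0.24 (limma adjusted p = 0.326). That is 0.996-fold to 1.18-fold in RPKM + 0.5, which understates the fold in RPKM. In the same libraries Fos, an AP-1 factor with an AU-rich mRNA, rose from 1.89 ± 0.687 to 14.3 ± 4.58 RPKM in wild type (SD, n = 6).

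Zfp36l2, on chromosome 17 at 84583269 to 84587287 (mm9), lay on the other side. In wild type its lowest, median and highest levels were 6.42, 6.99 and 8.32 RPKM in the home cage and 5.93, 6.30 and 6.88 after training. In heterozygotes they were 6.21, 6.98 and 8.78 RPKM in the home cage and 5.85, 6.73 and 7.12 after training. All 6 trained animals of each genotype lay below the home cage mean of that genotype, and 4 of 6 in wild type lay below the lowest home cage animal. In heterozygotes 1 of 6 did.

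The difference for Zfp36l2 was -0.14 ± 0.07 in wild type (SE; limma adjusted p = 0.464) and -0.13 ± 0.07 in heterozygotes (adjusted p = 0.525). Averaged over the genotypes it was -0.13 ± 0.05 (95% confidence interval -0.23 to -0.03, adjusted p = 0.134) and did not pass. Without adjustment over genes, the exact permutation p was 0.0238 in wild type, 0.171 in heterozygotes and 0.0112 for the average. Without the 6 choroid-rich libraries the averaged difference was -0.09 over the 18 animals left (limma adjusted p = 0.548). That in heterozygotes was -0.04, over 8 animals. With 1 library left out the heterozygous difference ran from -0.17 to -0.07.

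**Figure D3:**
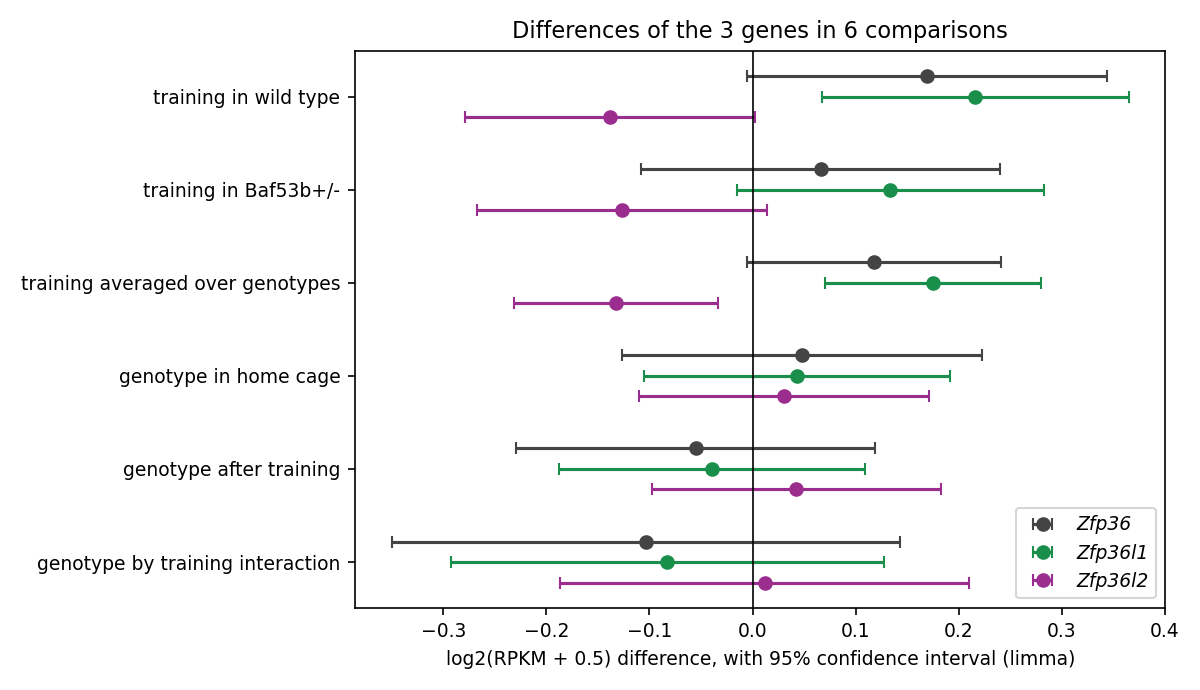
Difference in log2(RPKM + 0.5) (horizontal axis) for the 3 genes in 6 comparisons (vertical axis), with 95% confidence intervals from limma. Zfp36l1 and Zfp36l2 lie on opposite sides of 0 in the 3 training comparisons. Training intervals exclude 0 only for Zfp36l1 in wild type and averaged, and for Zfp36l2 averaged. Every other training interval includes 0, and so does every genotype and interaction interval.

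The balance between members was then compared within each animal, since the separate tests do not show whether members differ in their response. The ratio of Zfp36l1 to Zfp36l2 rose with training in both genotypes. In wild type its lowest, median and highest values were 0.982, 1.31 and 1.38 in the home cage and 1.39, 1.53 and 1.88 after training, and the groups did not overlap. In heterozygotes they were 1.12, 1.25 and 1.35 in the home cage and 1.28, 1.42 and 1.81 after training, with 5 of 6 trained animals above every home cage animal. The log2 ratio differed by 0.38 ± 0.10 in wild type (SE; two-sided exact permutation p = 0.00216, adjusted p = 0.0130 over 6 ratio tests) and by 0.28 ± 0.09 in heterozygotes (exact permutation p = 0.0108, adjusted p = 0.0325). How often ratios of other gene pairs separate the groups was not examined. The adjustment covers the 6 ratio tests and not the choice of members, made with earlier results known.

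In heterozygotes the highest ratios after training, 1.79 and 1.81, were those of the choroid-rich animals 2409 and 2429, both female. The other female of that group, 2410, stood at 1.39. No ratio was tested with sex taken into account. Without the choroid-rich libraries the log2 ratio of Zfp36l1 to Zfp36l2 differed by 0.15 in heterozygotes (exact permutation p = 0.0857, 8 animals) and no longer passed. In wild type it differed by 0.38 (exact permutation p = 0.00794, 10 animals). Leaving out any 1 animal kept the exact p at or below 0.0281 in heterozygotes and 0.00433 in wild type. The difference between the genotypes in this response was -0.10 ± 0.14 (SE), heterozygous minus wild type, and was not tested.

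The ratio of Zfp36 to Zfp36l2 also rose in wild type, by 0.35 ± 0.12 on the log2 scale (SE; exact permutation p = 0.0173, adjusted p = 0.0346). Its median went from 0.319 in the home cage to 0.389 after training, and 3 of 6 trained animals lay above every home cage animal. In heterozygotes it differed by 0.22 ± 0.12 (exact permutation p = 0.121, adjusted p = 0.182). All 6 trained heterozygotes lay above the home cage median, and the highest, 0.442 and 0.409, were again the choroid-rich females 2409 and 2429. Without the choroid-rich libraries the heterozygous difference was 0.05 (exact permutation p = 0.8, 8 animals). The ratio of Zfp36 to Zfp36l1 did not pass: its log2 difference was -0.02 ± 0.12 in wild type and -0.06 ± 0.08 in heterozygotes (SE; exact permutation p = 0.842 and 0.502). A ratio shows unequal change between 2 genes and does not say which of them moved.

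**Figure D4:**
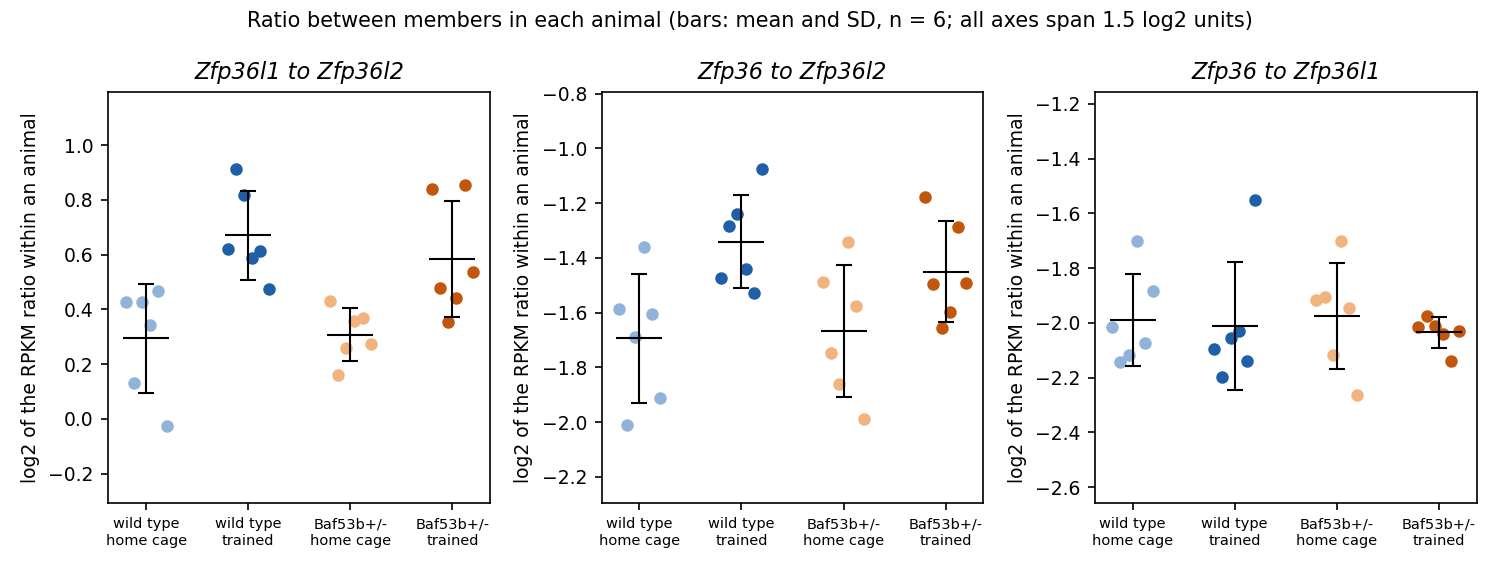
Log2 of the RPKM ratio between members within each animal (vertical axis, the same span of 1.5 in each panel) in the 4 groups (horizontal axis), with bars for the mean and SD of 6 animals. In wild type the trained animals lie above all home cage animals for Zfp36l1 to Zfp36l2, narrowly, from 0.473 to 0.91 against -0.03 to 0.469.

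The genotypes were compared in each condition to ask whether a reduced dose of BAF53b went with a different level of the family. No member passed (limma, 0 of 3 in the home cage and 0 of 3 after training, where 0.00807% of all genes passed in each). At an unadjusted p under 0.05 the count was also 0 of 3 in each, against 3.52% of all genes in the home cage and 3.69% after training. Zfp36l1 averaged 8.73 RPKM in wild-type and 9.002 in heterozygous home cage mice, and 10.2 and 9.92 after training. For the 3 members the log2 difference, heterozygous minus wild type, ran from 0.03 (Zfp36l2) to 0.05 (Zfp36) in the home cage. After training it ran from -0.06 (Zfp36) to 0.04 (Zfp36l2). The widest of these 6 confidence intervals, that of Zfp36, excluded in each condition a fold of RPKM + 0.5 below 0.853 or above 1.17. Folds of RPKM + 0.5 understate folds of RPKM, most of all for Zfp36, the lowest member.

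For the response to training, heterozygous minus wild type, the difference was -0.10 ± 0.12 for Zfp36, -0.08 ± 0.10 for Zfp36l1 and 0.01 ± 0.10 for Zfp36l2 (SE; limma adjusted p from 0.985 to 0.997). No member passed this interaction (0 of 3, and 0 of 3 at an unadjusted p under 0.05), and neither did any of the 12399 genes (0%, with 2.49% at an unadjusted p under 0.05). The intervals allow a response in heterozygotes from 0.785-fold to 1.104-fold that in wild type for Zfp36, and from 0.816-fold to 1.09-fold for Zfp36l1. For Zfp36l2 they allow 0.879-fold to 1.16-fold.

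Among themselves, Zfp36 and Zfp36l1 varied together more than either did with Zfp36l2. Over the 24 animals the Pearson correlation was 0.56 between Zfp36 and Zfp36l1 (Spearman 0.49), -0.10 between Zfp36 and Zfp36l2 (Spearman -0.27) and -0.17 between Zfp36l1 and Zfp36l2 (Spearman -0.12). After each group's mean was subtracted it was 0.42, 0.14 and 0.18. These points share libraries and are given as a description.

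Genes were ranked by Pearson correlation over the 24 animals. First for Zfp36l1 was Tob1 (0.83), which encodes an antiproliferative protein that binds the CCR4-NOT deadenylase. Cnn3, Pofut2, Eaf1 and Btd followed at 0.79 to 0.80. By Spearman correlation Pofut2 (0.839) and Btd (0.837) stood just above Tob1 (0.836). Within groups, after the means were subtracted, the likest were Olfml1 (0.87), Btd (0.84), the glial transcription factor gene Sox9 (0.83), Limd1 (0.80) and Pnp (0.80). For Zfp36 the likest were Abhd4 (0.82), Arrdc3 (0.81), Cdr2l (0.81), Zcchc24 (0.78) and Csrp1 (0.78). Within groups they were Abhd4, Csrp1, Rab31, Cdr2l and Cpm, at 0.79 to 0.82. For Zfp36l2 they were Pcdhgc3 (0.76), the endothelial transcription factor gene Sox18 (0.75), Tmem223, Spg7 and 1110065P20Rik, and within groups Pcdhgc3 (0.75), Zfp219, Ndufa11, Mylip and 1600021P15Rik.

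Levels of cell type markers were set beside the family. Oligodendrocyte markers, 10 genes, had a within-group correlation of 0.69 with Zfp36 and 0.50 with Zfp36l1, and astrocyte markers, 10 genes, of 0.50 with Zfp36 and 0.26 with Zfp36l1. Microglia markers, 12 genes, had one of 0.42 with Zfp36 and -0.14 with Zfp36l1. Choroid plexus markers split the libraries into separate clusters, so no value over all animals is given for them. For Zfp36l2 the correlation with oligodendrocyte, astrocyte, microglia, endothelial and mural, and neuronal markers lay between -0.04 and 0.21 within groups. None of the oligodendrocyte, astrocyte, microglia or endothelial and mural markers passed limma in the averaged training comparison. At an unadjusted p under 0.05, 3 of 16 endothelial and mural and 2 of 12 microglial markers passed, where 16.8% of all genes did. For oligodendrocyte and astrocyte markers it was 0 of 10 each. Of 12 neuronal markers 0 passed limma and 3 had an unadjusted p under 0.05. All 10 oligodendrocyte markers had a positive difference, with a median of 0.08. So did 13 of 16 endothelial and mural markers, with a median of 0.06. The count was 8 of 10 for astrocyte, 8 of 12 for microglial and 4 of 12 for neuronal markers. Over all tested genes the median was 0.004, and the share of positive differences was not counted. Markers of the same cell type share libraries, so these counts are not of separate observations. The part of these cells in the family's values was not tested.

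The machinery that the family recruits was examined next, in lists drawn up with earlier results of these data known. Counts from these lists are thus not independent evidence. In the CCR4-NOT and deadenylation list, 4 of 20 genes rose in the averaged training comparison and 0 fell, against 3.26% of all genes that rose. The 3 with the largest rise are not core subunits but antiproliferative proteins that bind the deadenylase. Btg2 rose from 4.36 ± 0.469 to 6.86 ± 1.53 RPKM in wild type and from 3.98 ± 0.376 to 6.22 ± 0.82 in heterozygotes (SD, n = 6). Tob2 rose from 6.56 ± 0.474 to 9.53 ± 1.13 RPKM in wild type and from 6.81 ± 0.539 to 9.33 ± 0.81 in heterozygotes. Tob1 rose from 20.8 ± 1.23 to 25.6 ± 1.93 RPKM in wild type.

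In limma the averaged difference was 0.58 ± 0.07 for Btg2, 0.46 ± 0.05 for Tob2 and 0.26 ± 0.04 for Tob1 (SE; adjusted p from 7.23e-07 to 0.000309). In wild type alone all 3 passed, and in heterozygotes Btg2 and Tob2 did, while Tob1 stood at 0.23 (adjusted p = 0.0562). Without the choroid-rich libraries Btg2 and Tob2 did not pass in heterozygotes, with differences of 0.58 and 0.40 over fewer animals against 0.58 and 0.43 in all (adjusted p = 0.111 and 0.0736). All 3 passed in the averaged comparison. Cnot6, a catalytic deadenylase subunit, rose by 0.13 ± 0.04 (adjusted p = 0.0413), which passed in 9 of 24 leave-one-out fits (highest adjusted p 0.0802). Without the choroid-rich libraries Cnot6 differed by 0.14 and did not pass (adjusted p = 0.140), and with the choroid covariate it passed (0.0338). The other 16 genes of the list did not pass, and the list's median difference was 0.02, against 0.00 over all genes tested. Btg2 is also an early gene of neuronal activity, so its change is not a separate result.

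Of 27 tested genes for decapping and the exonucleases, 2 rose and 1 fell, against 3.26% and 0.911% of all genes. Dcp1a, a decapping cofactor, rose by 0.15 ± 0.03 (SE; limma adjusted p = 0.00558) and the exosome subunit gene Exosc6 by 0.20 ± 0.04 (adjusted p = 0.00125). Exosc8, of the same complex, fell by 0.16 (SE 0.03, adjusted p = 0.00375). The list's median was -0.00.

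Among 15 tested genes for other AU-rich or stem-loop binding proteins, 2 rose and 0 fell, against the same 3.26% and 0.911%. These were Zc3h12c, of the regnase family, by 0.19 ± 0.04 (SE; limma adjusted p = 0.0121) and Rc3h2, a roquin, by 0.09 ± 0.02 (adjusted p = 0.0218). Without the choroid-rich libraries neither passed, at differences of 0.19 and 0.08 over fewer animals (adjusted p = 0.106 and 0.170). Both passed with the choroid covariate (adjusted p = 0.0141 and 0.0252). Of 20 tested kinases, phosphatases and their 14-3-3 partners that act on the family, 1 rose: Dusp1, a phosphatase that turns off p38 MAP kinase, from 5.57 ± 0.729 to 12.5 ± 2.73 RPKM in wild type (SD, n = 6). That is a share near the 3.26% of all genes that rose, and Dusp1 is on the early gene list too. The list's median was -0.01.

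Of 27 described targets of the family, 11 reached a mean of 1 RPKM and the other 16, Tnf, Il6 and other cytokine genes among them, stood at 0.816 RPKM or less. Of the 11, 3 rose and 0 fell in the averaged comparison, against 3.26% and 0.911% of all genes. Fos differed by 2.56 ± 0.13 (SE), Nfkbia, an inhibitor of NF-kappaB, by 0.39 ± 0.04 and the kinase gene Plk3 by 0.23 ± 0.06 (limma adjusted p = 0.0152 for Plk3). Without the choroid-rich libraries Plk3 differed by 0.25 over fewer animals and did not pass (adjusted p = 0.0818), while it passed with the choroid covariate (0.0179). The median of the 11 was 0.13, against 0.00 over all genes tested, and 10 of 11 differences were positive. Fos is on the early gene list too, so its change is not a separate result. The list was drawn up with earlier results known, so the count is not independent evidence.

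**Figure D5:**
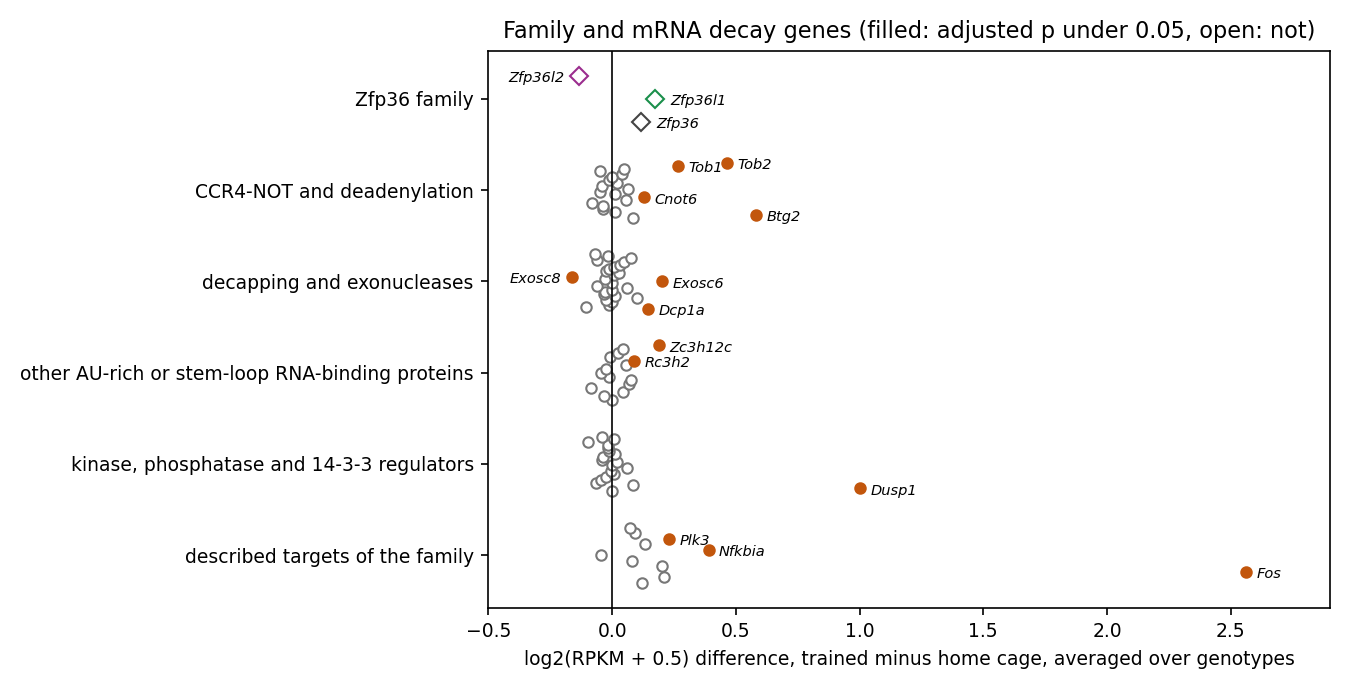
Difference in log2(RPKM + 0.5), trained minus home cage, averaged over the genotypes (horizontal axis), for the 3 family members and 5 gene lists (vertical axis), 1 point per tested gene. Filled points passed limma at an adjusted p under 0.05, and the 3 family members are open, with Zfp36l1 at 0.17.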

How the data were processed

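RNA from both dorsal hippocampi was sequenced with single-end reads of 50 cycles on TruSeq RNA v2 libraries, per the labels' protocols. The authors deposited RPKM values on mm9 for each animal, without pooling, with CASAVA 1.8.2 and Bowtie 0.12.8 listed in the submitters' processing notes. The sources used here do not give the annotation, the read total or how multiply matching reads were treated. RefSeq lists a Zfp36l1 pseudogene on chromosome X, so shared reads are possible. Depth was the smallest read total at which values of single-exon genes came near whole reads: 42.8% to 51.8% lay within 0.05 reads of a whole number.

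Log2(RPKM + 0.5) was fitted with limma 3.58.1 (R 4.3.3; trend, robust) over the 12399 genes whose mean reached 1 RPKM, with 4 groups in 1 model and Benjamini-Hochberg adjustment over all genes. In simulated data modelled on the wild-type training comparison (12399 genes), 62% of genes changed by 0.25 on the log2 scale were recovered, and 96% of those changed by 0.5. Another 12 genes were called that had not been changed. The changed genes were drawn at random, so these shares are not recovery rates for the family members. Single genes and within-animal ratios were compared by exact permutation over 924 splits of 12 animals. Choroid-rich libraries were those above the widest gap in the mean level of 12 choroid plexus markers. The permutation averaged over genotypes, and leaving animals out of the ratio tests, were chosen after seeing the data. Members and gene lists were chosen with earlier results of these data known. Named genes were the members, Actl6b, up to 6 called genes per list and the 5 most correlated genes per member, with Egr1, Tnf, Il6 and Zfp36l3 chosen after their values were seen or as context.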

Additional observations from a re-analysis of the deposited data

Results flagged for a closer look

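An animal stood apart from the other 5 of its group in 3 of 24 sets tested (3 genes and 3 ratios in 4 groups), where chance flags about 1 in 20. Zfp36 in trained heterozygotes was highest in animal 2409, at 2.82 RPKM with the next at 2.42, a gap of 0.714 of the group's range. Zfp36l2 in wild-type home cage mice was highest in animal 2430, at 8.32 RPKM with the next at 7.12, a gap of 0.630 of the range. The log2 ratio of Zfp36 to Zfp36l1 in trained wild-type mice was highest in animal 2436, at -1.55, a gap of 0.738 of the range.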

How the results depend on the processing

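No paired analysis was possible because each animal has its own number and the groups share none. Zfp36l1 in the averaged training comparison passed with the choroid covariate (0.18) and in 7 of 24 fits that left out 1 library (0.15 to 0.19 over all 24). No other member passed limma under any alternative. Small genotype differences changed sign: Zfp36l1 in the home cage with the choroid covariate (-0.00496) and, with 1 library left out, Zfp36 in the home cage (-0.00928 to 0.0938) and after training (-0.104 to 0.0059), Zfp36l1 after training (-0.0785 to 0.00605), and Zfp36l2 in the home cage (-0.0214 to 0.0742) and in the interaction (-0.0318 to 0.0637). The ratio of Zfp36 to Zfp36l1 in wild type also did (-0.115 to 0.0351). The ratio of Zfp36 to Zfp36l2 in heterozygotes passed without animal 2417 (0.28, exact permutation p = 0.0498; 0.15 to 0.28 over all fits) and was 0.05 without the choroid-rich libraries (exact permutation p = 0.8). The ratio of Zfp36l1 to Zfp36l2 in heterozygotes did not pass without the choroid-rich libraries (0.15).

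Genes called for training numbered 134 in wild type and 128 in heterozygotes, with 404 higher and 113 lower in the averaged comparison. A filter at 5 RPKM gave 83, 84 and 339 in these 3 with fewer genes tested, and leaving out the choroid-rich libraries gave 65, 51 and 262 with fewer animals. The compared groups alone gave 75 in wild type and 85 in heterozygotes. Leaving out 1 library gave 92 to 160, 96 to 142 and 415 to 541. For genotype after training, 1 gene was called, and 2 with a pseudocount of 1, median centring or no trend, and 1 to 2 with 1 library left out. The cause of these shifts was not tested beyond the smaller tables.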
